A study of Mus musculus with 6 samples.

Results

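Nuclear-encoded subunits of the mitochondrial respiratory chain and ATP synthase were examined in the hippocampus of mice. They were taken as the rows of the count files whose gene symbol begins with Nduf, Uqcr, Cox4 to Cox8 or Atp5, or is Sdha, Sdhb, Sdhc or Sdhd. This gave 92 of 23282 rows. Of these, 81 encode subunits: 36 of complex I, 4 of complex II, 8 of complex III, 18 of complex IV and 15 of complex V. The remaining 11 encode no structural subunit of a complex: the assembly factors Ndufaf1 to Ndufaf7, the supercomplex factor Cox7a2l, the complex IV-associated paralogue Ndufa4l2, and Atp5s and Atp5sl. Ndufa4 was counted with complex IV, to which its protein is now assigned.

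The libraries came from C57BL/6 mice aged 16 weeks. There were 3 libraries from mice labelled PHF2 t/g and 3 from wild-type (WT) mice, and the study compared hippocampal mRNA between these genotypes. PHF2 is a histone demethylase with a plant homeodomain finger. The construct, its promoter, the cells in which it is active, and whether each library came from 1 mouse were not given in the sources used here, so p-values measure the spread between libraries.

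The inner mitochondrial membrane carries the machinery of oxidative phosphorylation. Complexes I and II pass electrons from NADH and succinate to ubiquinone, complex III passes them to cytochrome c, and complex IV passes them to oxygen. Complexes I, III and IV pump protons, and complex V (ATP synthase) uses the proton gradient to make ATP. Most subunits are encoded in the nucleus and a smaller set in mitochondrial DNA, and neurons depend on this machinery for the cost of signalling. The factors NRF1, GABP (an ETS-family factor) and YY1 are known for binding at promoters of many of the nuclear genes.

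Promoter letters are shown for 4 subunit genes, to make visible the motifs that some of these genes have and others do not. Sequences are RefSeq's on GRCm38.p6, 250 bases before the annotated start and 10 after it, on the gene's own strand. Capitals mark the NRF1 motif GCGCATGCG or the ETS motif CCGGAAGT, each on either strand. The complex III gene Uqcr11 (chr10:80406812-80407071, minus strand) had both, Atp5l of complex V (chr9:44920733-44920992, minus strand) had the NRF1 motif, and Uqcrh of complex III (chr4:116075061-116075320, minus strand) had the ETS motif. Ndufb8 (chr19:44555433-44555692, minus strand), the complex I gene with the highest level here, had neither.
Uqcr11: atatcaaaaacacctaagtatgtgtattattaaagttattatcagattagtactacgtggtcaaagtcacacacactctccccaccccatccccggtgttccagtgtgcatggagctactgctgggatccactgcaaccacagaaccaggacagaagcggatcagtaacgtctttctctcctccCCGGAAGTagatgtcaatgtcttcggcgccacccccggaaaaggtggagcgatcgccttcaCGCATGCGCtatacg
Atp5l: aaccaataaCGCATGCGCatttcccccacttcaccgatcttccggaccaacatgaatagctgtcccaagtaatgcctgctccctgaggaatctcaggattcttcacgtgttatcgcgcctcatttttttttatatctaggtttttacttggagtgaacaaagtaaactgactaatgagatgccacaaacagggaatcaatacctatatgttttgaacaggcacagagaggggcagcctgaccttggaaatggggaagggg
Uqcrh: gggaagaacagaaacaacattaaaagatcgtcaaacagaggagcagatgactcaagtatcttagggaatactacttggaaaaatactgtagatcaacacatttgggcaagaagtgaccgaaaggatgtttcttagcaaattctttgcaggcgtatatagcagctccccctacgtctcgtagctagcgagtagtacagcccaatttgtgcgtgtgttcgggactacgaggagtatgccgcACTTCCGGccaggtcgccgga
Ndufb8: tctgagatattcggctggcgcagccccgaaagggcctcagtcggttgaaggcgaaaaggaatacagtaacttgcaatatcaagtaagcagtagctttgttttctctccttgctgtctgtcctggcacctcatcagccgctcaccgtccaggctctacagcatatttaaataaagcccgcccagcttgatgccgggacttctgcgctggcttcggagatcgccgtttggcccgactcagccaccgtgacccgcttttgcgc

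RefSeq windows of 300 bases, including 50 bases after the start, were held for 76 of the 92 rows, matched by gene ID. The NRF1 motif was found in 10 of the 76 (13.2%), against 1.95% of 27025 genes with such a window. The ETS motif was found in 5 (6.58%, against 4.31%). The YY1 motif AAGATGGCG was found in 8 (10.5%, against 1.64%), and in 7 of those 8 a match began after the start. In all, 22 of the 76 held at least 1 of these motifs, and Uqcr11 was the only 1 with more than 1 of them. None of the 3 motifs contains another, and a match is a description of the letters, not of binding. The genes are spread over 19 chromosomes, with at most 10 on any 1.

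Library totals ran from 5512171 to 8844718 counts, and 89 to 92 of the 92 rows had a count in each library. Phf2 itself was at 38.3, 35.6 and 39.3 CPM (counts scaled to a common library total) in WT and at 35.5, 37.3 and 43.1 CPM in PHF2 t/g (log2 fold change 0.03, SE 0.11, edgeR adjusted p = 0.929), so its row does not tell the groups apart. Some genes listed as markers of neighbouring tissue were higher in PHF2 t/g and others of the same lists were not; their source, in carried-over tissue or in the hippocampus itself, was not tested. The summed level of 7 hypothalamic peptide genes was 4.76 to 5.40 CPM in WT and 51.5 to 53.6 CPM in PHF2 t/g. This sum moved with Avp, Oxt and Trh, the 3 called higher of 4 tested, whereas Pomc (means 1.77 and 1.65 CPM), Pmch (0.681 and 0.569 CPM), Hcrt (0.508 and 0.276 CPM) and Agrp (at most 2 counts in any library) were not called or not tested. For 8 striatal genes the sum was 595 to 692 CPM against 779 to 898 CPM. Penk, Tac1 and Rgs9 were called higher of 7 tested, Adora2a had a negative value (97.1 and 77.8 CPM, log2 fold change -0.33, edgeR adjusted p = 0.169), and Drd2 had at most 3 counts in any library. For 6 leptomeningeal genes the sum was 65.0 to 89.7 CPM against 139 to 151 CPM. Mgp (43.6 and 111.6 CPM) was the 1 called of 5 tested, and Dcn had a negative value (24.0 and 18.7 CPM, log2 fold change -0.34, edgeR adjusted p = 0.387). The choroid plexus gene Ttr was at 292 CPM in PHF2 t/g replicate 1 and at 1.29 to 4.46 CPM in the other 5 libraries; the 8 choroid plexus genes summed to 141 to 157 CPM in WT and 159 to 561 CPM in PHF2 t/g, with 0 of 4 tested called. The 10 hippocampal markers summed to 1023 to 1182 CPM in WT and 952 to 1176 CPM in PHF2 t/g, and 1 of the 10, Wfs1, was called, higher (35.9 and 50.3 CPM, edgeR adjusted p = 0.019). The 6 neuronal markers summed to 5041 to 5433 CPM in WT and 4873 to 5011 CPM in PHF2 t/g, with Tubb3 called lower (log2 fold change -0.38, edgeR adjusted p = 0.012). Of 6 oligodendrocyte markers, Mag was called lower (log2 fold change -0.36, edgeR adjusted p = 0.046). Of these 6, however, 4 had a log2 fold change above 0 and 2 below. Their sums overlapped, at 2079 to 2341 CPM in WT and 2298 to 2345 CPM in PHF2 t/g. In bulk tissue, fewer cells of a type and less RNA per cell cannot be told apart.

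Transcripts of the 5 complexes were abundant, at levels that varied far more between genes than between libraries. Each 3′ tag library gives about 1 tag per transcript, so CPM can be set side by side between genes with no correction for length. CPM here are scaled by TMM, which centres the libraries on the bulk of genes. The 81 subunit rows together took 1.40% to 1.54% of all counts. Their median level over the 6 libraries was 125 CPM, against 2.75 CPM over all 23282 rows, many of which had few or no counts. Among rows that passed a filter on low counts, the medians were 133 CPM for 76 subunit rows and 20.1 CPM for all 12831.

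**Figure D1:**
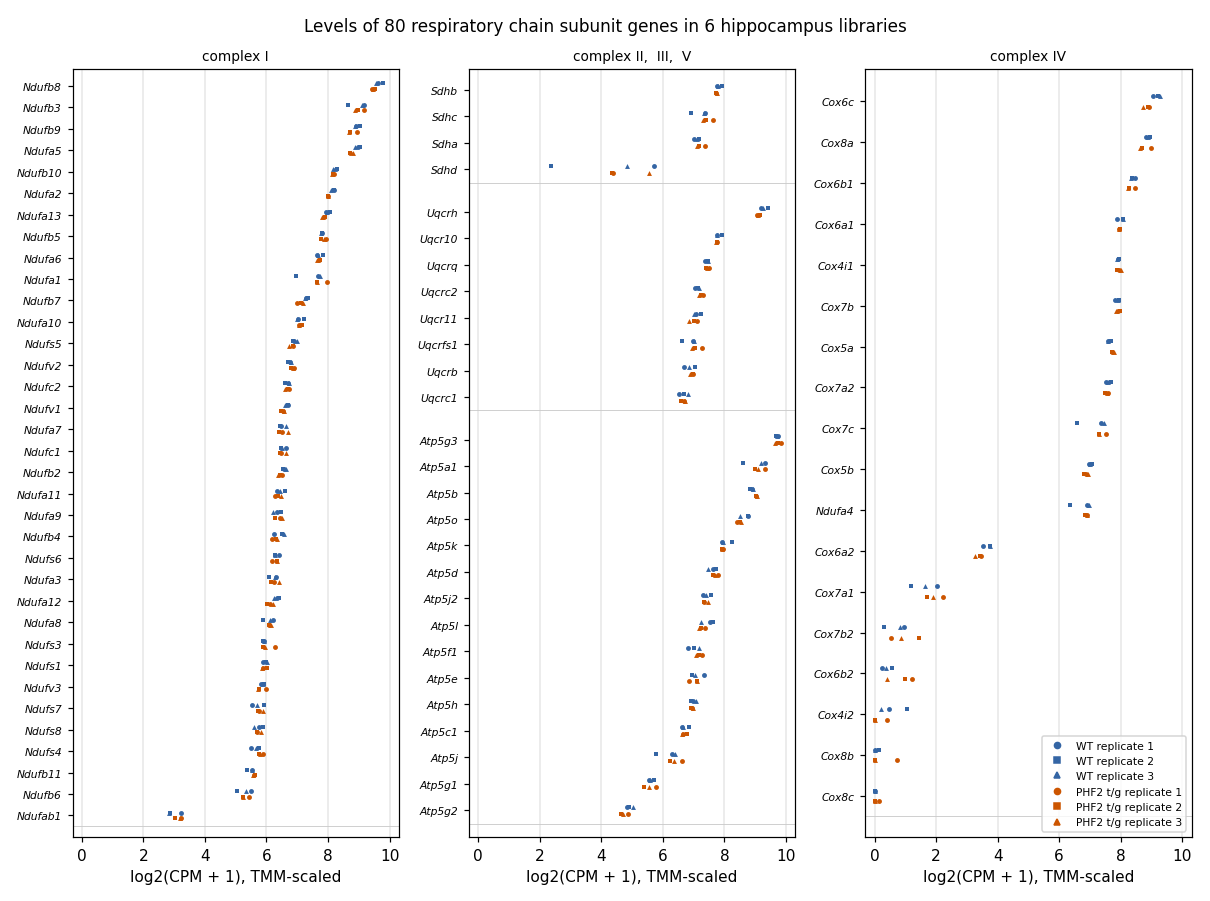
Level of 80 of the 81 subunit genes on a log2(CPM + 1) scale (TMM-scaled), sorted within complexes from high to low; blue points are the 3 WT libraries, orange points the 3 PHF2 t/g libraries, and shapes mark the replicate. Levels run from near 0 for the tissue isoforms of complex IV to 846 CPM for Atp5g3, while most genes hold close to 1 level in all 6 libraries; Sdhd and a few genes with a low WT replicate 2 are the wide ones.

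Within every complex the subunits, which assemble in fixed ratios as proteins, had transcripts at unequal levels. In complex I the 36 rows ranged from 7.38 CPM for Ndufab1, the mitochondrial acyl carrier protein, to 759 CPM for Ndufb8, a span of 103-fold. This span rests on Ndufab1, since the next lowest row, Ndufb6, was at 38.8 CPM. The highest levels belonged to accessory subunits. The 8 rows of complex III spanned 5.78-fold, from 102 CPM for the core protein Uqcrc1 to 587 CPM for Uqcrh. Cyc1, a complex III subunit whose symbol is not among those used here, was lower still, at 42.0 CPM. Complex V spanned 30.7-fold, from 27.6 CPM for Atp5g2 to 846 CPM for Atp5g3. Both of these encode the same mature protein, so this span lies between genes of 1 subunit. Outside the Atp5g genes, levels in complex V ran from 78.2 CPM for Atp5j to 551 CPM for Atp5a1. Complex II spanned 7.83-fold, a value that rests on Sdhd, which ran from 4.11 to 51.8 CPM between libraries; without it the span was 1.55-fold. Of the 91 rows with a GENCODE transcript, 26 share a near-identical stretch at the 3′ end with another gene (at least 97% over 75 bases within the last 300). Not all of these are copies. The match of Ndufb8 (Gm20538) and that of Uqcrc2 (Pdzd9) are genes that overlap the same place, and Ndufaf7 matched 14 genes. Ndufab1, the lowest row of complex I, matched Gm4459 and Ndufab1-ps. Some of the levels given here may therefore hold only part of a gene's tags.

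Cox7c of complex IV shows how much this can matter. Its own row had 163, 94.2 and 176 CPM in WT and 183, 157 and 154 CPM in PHF2 t/g. The near-identical row Gm12338 had more, with 295, 139.6 and 296 CPM in WT and 312, 259 and 248 CPM in PHF2 t/g, and a further copy, Gm10012, had 88.5 to 130.0 CPM. The 3 rows together came to 501 ± 155 CPM in WT and 554 ± 56.2 CPM in PHF2 t/g (SD, n = 3). WT replicate 2 was the lowest library in all 3 rows, and the groups overlapped. The complex I gene Ndufs5 had 106 to 127 CPM, and its near-identical row BC002163 had 138 to 164 CPM. These copies were picked out after their values were seen.

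Between PHF2 t/g and WT hippocampus, 1 of these transcripts passed the test, and most of the others differed by small amounts. Of the 92 rows, 87 passed the filter on low counts and were tested. By the edgeR quasi-likelihood test, with p-values adjusted by Benjamini-Hochberg over 12831 rows, 1 was called (Cox6c, lower), 0 were called higher and 86 were not called. Over all rows tested, 291 were called (2.27%), 0.779% higher and 1.49% lower, so 1 of 87 is near the background. The split of those 291 into higher and lower depends on the scaling: 34.4% were higher with TMM, 74.7% of 277 with library size alone and 18.5% of 270 with DESeq2. At an unadjusted p under 0.05 there were 11 of 87, against 14.7% of all rows; 9 of them were lower (background 7.95%) and 2 higher (background 6.72%). DESeq2 also called 1, and limma-voom called 0. The 3 PHF2 t/g libraries lay wholly outside the 3 WT libraries in 22 of 87 rows, against 20.6% of all rows tested. They were higher in 9 (background 10.1%) and lower in 13 (background 10.4%).

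Most of the intervals were narrow enough to bound the change. The 95% interval of the fold change lay within 1.5-fold in either direction for 75 of the 87 rows (86.2%), against 7821 of 12831 rows (61.0%). The median log2 fold change of the 76 tested subunit rows was -0.03, with 35 above 0 and 41 below, and that of all tested rows was 0.02. By complex the medians were -0.02 for complex I, 0.10 for complex II, -0.01 for complex III, -0.05 for complex IV and -0.04 for complex V. These signs depend on the scaling: with library size alone the median of all tested rows moved from 0.02 to 0.12, and the medians of complexes I, III, IV and V moved above 0 (0.05 to 0.09), each still below that of all rows.

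**Figure D2:**
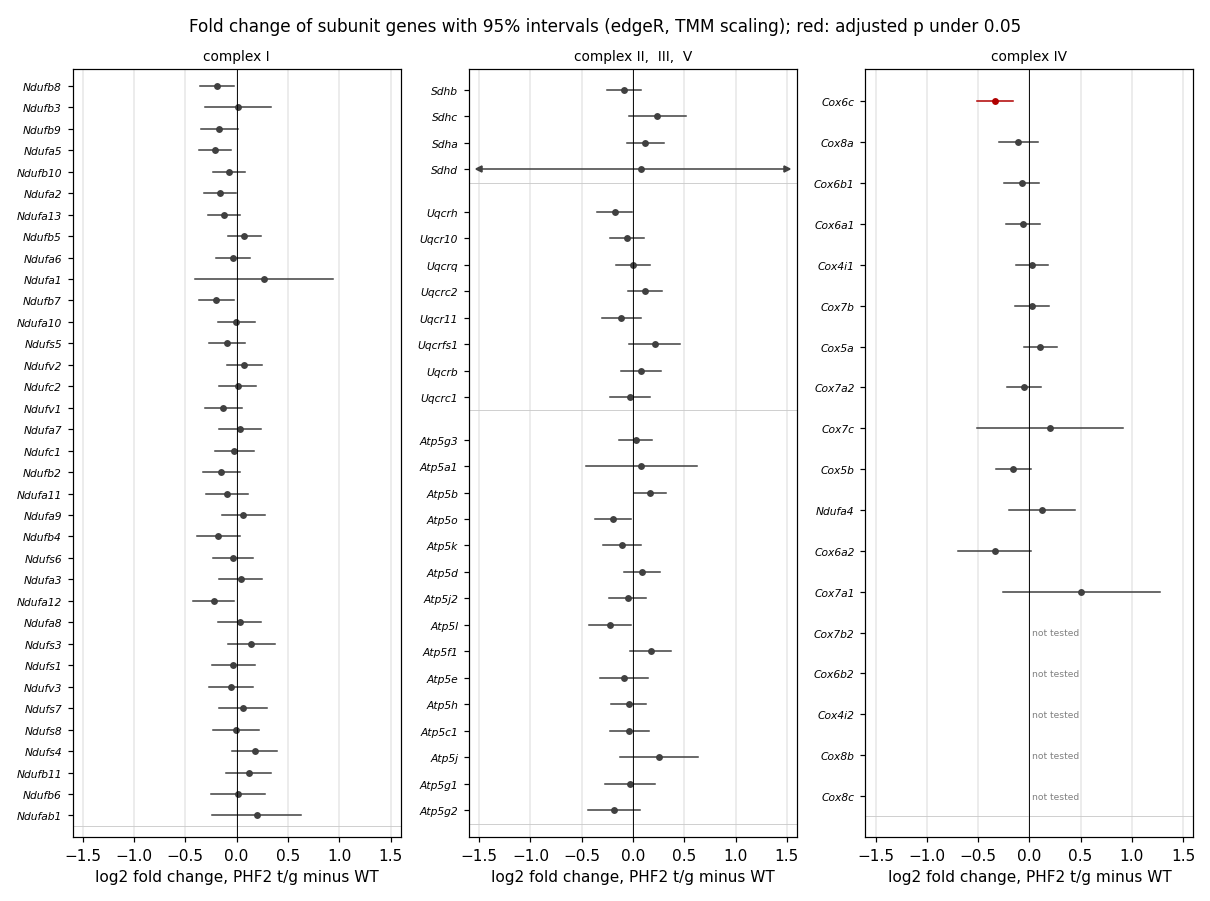
Log2 fold change (PHF2 t/g minus WT, edgeR with TMM scaling) of 75 of the 76 tested subunit genes, with its 95% interval as a line; red marks an adjusted p under 0.05, and arrows mark an interval that runs past the axis. Cox6c is the only red gene, most intervals are short and cross 0, and Sdhd has the widest.

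Cox6c, a small membrane-spanning subunit of complex IV (chr15:35931976-35938246), was at 529.7, 592 and 616 CPM in WT replicates 1, 2 and 3 and at 486, 471 and 419.6 CPM in PHF2 t/g. Every PHF2 t/g library was below every WT library. The means were 579.5 ± 44.7 and 459 ± 34.7 CPM (SD, n = 3), a log2 fold change of -0.34 (SE 0.08, 95% interval -0.51 to -0.16), or 1.26-fold lower, with an edgeR adjusted p of 0.040. The exact two-sided permutation p over the 6 libraries was 0.1, the smallest that 3 against 3 allows. Raw counts behind these values were 2608 to 5041 per library. The direction held in all 16 alternatives, but the call held in 9 of them: it ended with library size alone, with limma-voom, with a fit that was not robust, and when any 1 of the PHF2 t/g libraries or WT replicate 3 was left out, and its adjusted p ranged from 0.0035 to 0.203. The edgeR adjusted p was 0.141, 0.149 and 0.203 without PHF2 t/g replicate 1, 2 and 3 in turn, 0.127 without WT replicate 3, and 0.0475 without both PHF2 t/g replicate 1 and WT replicate 2. The only near-identical gene found, Cox6c2, had no row of its own in the files, so reads from it, if any, could not be separated. With TMM scaling, the neuronal sum given above was also lower in every PHF2 t/g library. Of its 6 genes, 2 had a log2 fold change above 0 and 4 below. The hypothalamic, striatal, leptomeningeal and choroid plexus sums were higher. So was that of 9 endothelial and mural genes (98.2 to 119 CPM against 127 to 129 CPM), with 5 above 0 and 4 below. TMM factors were 0.955 to 0.978 in WT and 1.03 to 1.05 in PHF2 t/g, and these sums were not computed without them. The part of these cells in the Cox6c difference was not tested.

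**Figure D3:**
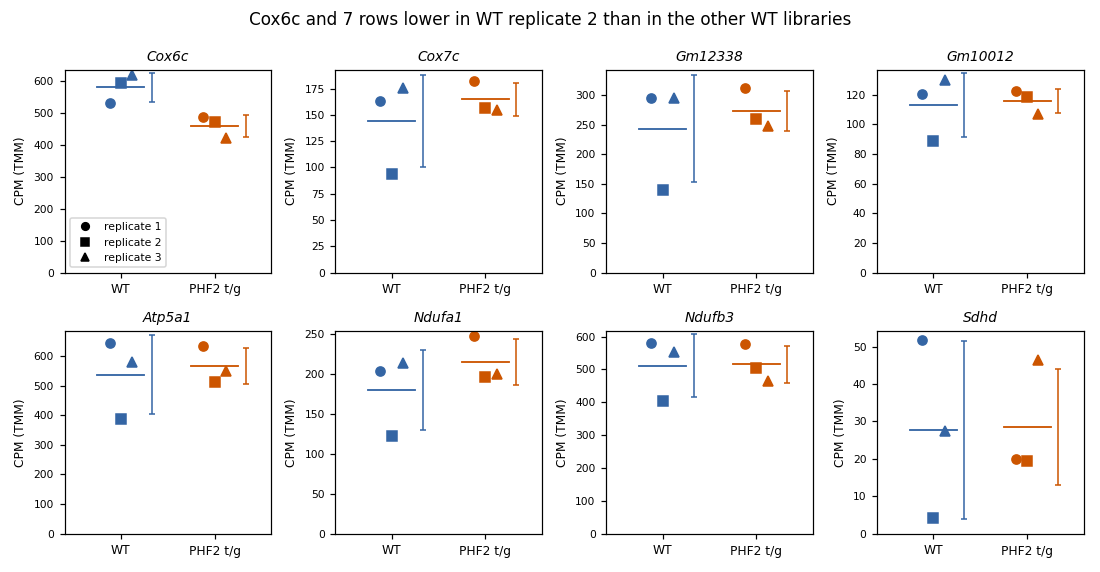
CPM (TMM-scaled, y axis from 0) of Cox6c and of 7 rows that were lower in WT replicate 2 than in the other WT libraries, including the Cox7c copies Gm12338 and Gm10012; bars at the points are means, error bars are the SD over 3 libraries, and shapes mark the replicate. For Cox6c the groups do not overlap; in the other 7 panels they do, and WT replicate 2 (square) is the lowest WT library.

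In complex I, 0 of 36 rows were called by edgeR, and by DESeq2 and limma-voom 0 were called as well. An unadjusted p under 0.05 was found for 5 of the 36, all of them lower. Over all rows tested the share was 7.95% lower and 6.72% higher, or 14.7% in either direction. The same shares are the background for the other complexes below. Of the 36 log2 fold changes, 16 were above 0 and 20 below with TMM, and 26 and 10 with library size alone. The accessory subunits of the membrane arm had the highest levels. Ndufb8 was at 783, 884 and 761 CPM in WT and at 687, 728 and 710.2 CPM in PHF2 t/g, with every PHF2 t/g library lower (log2 fold change -0.19, SE 0.08, edgeR adjusted p = 0.247). Its 3′ end overlaps Gm20538 on the same strand. Ndufb3 had 579.8, 403 and 552 CPM in WT against 577, 504 and 466 CPM in PHF2 t/g, with overlap. Ndufb9 had 478, 530.3 and 472 CPM against 490.2, 415 and 411 CPM, also with overlap.

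The smallest p-values of complex I belonged to Ndufa5, an accessory subunit of the matrix arm, and Ndufb7, one of the membrane arm. Ndufa5 was at 503, 519.7 and 465 CPM in WT and at 419.7, 421 and 444 CPM in PHF2 t/g (log2 fold change -0.21, SE 0.08, edgeR adjusted p = 0.168). For Ndufb7 the levels were 153, 162 and 152 CPM against 127, 137 and 144 CPM (log2 fold change -0.20, SE 0.08, edgeR adjusted p = 0.246). In both genes the groups did not overlap, yet neither passed the threshold. The most negative log2 fold change was that of Ndufa12, a matrix-arm accessory subunit, at -0.22, from 80.7, 84.1 and 75.5 CPM to 68.2, 64.3 and 73.4 CPM. The most positive among rows of at least 10 CPM was that of Ndufa1, a small membrane-arm subunit, at 0.26 (95% interval -0.41 to 0.94). Ndufa1 had 204, 122 and 213 CPM in WT and between 197 and 247 CPM in PHF2 t/g, with WT replicate 2 the lowest library. Without WT replicate 2 its log2 fold change was 0.04.

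Ndufv1, the core subunit that binds NADH, was at 95.5 to 102 CPM in WT and 88.5 to 93.5 CPM in PHF2 t/g (log2 fold change -0.13, SE 0.09, edgeR adjusted p = 0.515). It is given because its groups did not overlap, which was seen first.

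Complex II oxidises succinate and is the only complex with no subunit from mitochondrial DNA. None of its 4 rows was called (0 by DESeq2 and limma-voom, 0 at an unadjusted p under 0.05). The iron-sulfur subunit Sdhb had the highest level, with 217, 242 and 222 CPM in WT and 211, 213 and 218 CPM in PHF2 t/g (log2 fold change -0.09). The flavoprotein Sdha, which holds the succinate site, had 129, 142 and 138 CPM against 164, 145 and 136 CPM (log2 fold change 0.12, SE 0.09). The membrane anchor Sdhc had 166, 119 and 159 CPM against 196, 169 and 157 CPM (log2 fold change 0.24, SE 0.13, edgeR adjusted p = 0.423). In all 3 the groups overlapped. The other anchor, Sdhd (chr9:50596340-50603849), had the widest interval of all tested subunits, with 51.8, 4.11 and 27.4 CPM in WT and 20.0, 19.3 and 46.3 CPM in PHF2 t/g. Its 95% interval, -2.56 to 2.72 on the log2 scale, leaves its change unmeasured here. Sdhd was picked out after its values were seen.

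In complex III, 0 of 8 rows were called by edgeR, DESeq2 or limma-voom, and 1 (Uqcrh, lower) had an unadjusted p under 0.05. Uqcrh, the acidic hinge protein that helps cytochrome c dock, was at 576, 682 and 612 CPM in WT and at 536, 576 and 541 CPM in PHF2 t/g (log2 fold change -0.18, SE 0.08, edgeR adjusted p = 0.302). The highest PHF2 t/g library reached only the level of the lowest WT library. The small subunits Uqcr10 and Uqcrq overlapped between groups: Uqcr10 had 215, 243 and 217 CPM against 218, 218 and 212 CPM, and Uqcrq had 164, 176 and 177 CPM against 178, 168 and 171 CPM. Uqcrfs1, the Rieske iron-sulfur protein, had 126, 97.8 and 128 CPM against 155, 129.9 and 121 CPM (log2 fold change 0.21, SE 0.12, edgeR adjusted p = 0.423), and its groups overlapped. WT replicate 2 was again its lowest library.

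Complex IV held the 1 called row, Cox6c, and 12 tested rows that were not called. For its next most abundant subunits, Cox8a and Cox6b1, the groups overlapped. Cox8a was at 453, 498 and 469 CPM in WT and 509, 416 and 393 CPM in PHF2 t/g (log2 fold change -0.11, SE 0.09). Cox6b1, which faces the intermembrane space, was at 354, 330.1 and 321 CPM against 350.0, 304 and 301 CPM (log2 fold change -0.07, SE 0.08). Cox4i1 and Cox5a form an early assembly intermediate with the mitochondrially encoded COX1. Their log2 fold changes were 0.02 and 0.11; the groups overlapped for Cox4i1 and did not for Cox5a, which was higher in every PHF2 t/g library and was not called (edgeR adjusted p = 0.565). The most positive value among complex IV rows of at least 10 CPM was that of Cox7c (0.20, 95% interval -0.51 to 0.91), described above with its copies.

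Several complex IV subunits exist as tissue isoforms, and in every family measured the ubiquitous isoform supplied nearly all tags. Cox6a2, the isoform of heart and skeletal muscle that is also known in parvalbumin interneurons, made up 4.28%, 4.45% and 4.50% of Cox6a tags in WT and 3.86%, 3.80% and 3.37% in PHF2 t/g. Its level was 10.5, 12.6 and 12.6 CPM against 9.88, 9.80 and 8.53 CPM (log2 fold change -0.34, SE 0.17, edgeR adjusted p = 0.372), so the groups did not overlap but the gene was not called. Pvalb, the marker of those interneurons, was at 91.6 to 106 CPM in WT and 66.3 to 81.6 CPM in PHF2 t/g (log2 fold change -0.38, edgeR adjusted p = 0.054). The 5 genes listed for this cell type, Cox6a2 and Tac1 among them, summed to 284 to 304 CPM in WT and 273 to 280 CPM in PHF2 t/g; 1 of the 5, Tac1, which is also in the striatal list, was called, and it was higher. The other 4, Cox6a2 itself included, had negative values and were not called. Among them were Syt2 (14.3 and 10.2 CPM, log2 fold change -0.47, edgeR adjusted p = 0.161) and Kcnc1 (141.7 and 131.9 CPM, log2 fold change -0.10). Groups did not overlap in any of the 4, and PHF2 t/g was wholly lower in 10.4% of all rows tested. The part of these cells in the Cox6a2 difference was not tested. The 3′ end of Cox6a2 overlaps Itgad on the opposite strand, and it is unknown if the counting took strand into account.

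**Figure D4:**
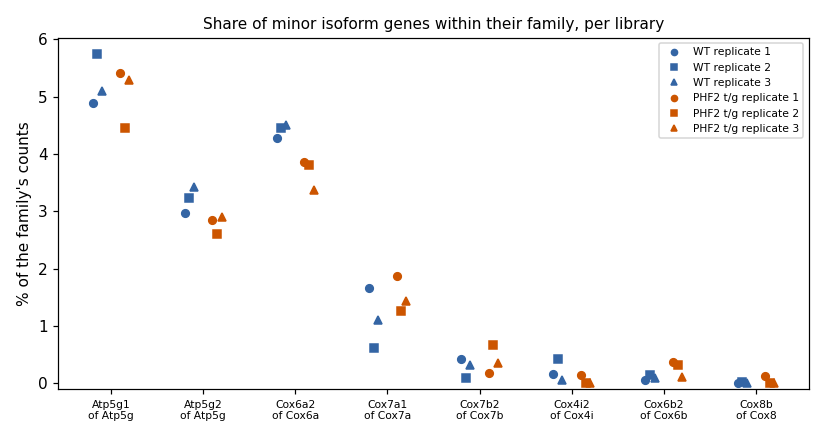
Share of each minor isoform gene in the counts of its family, in percent, for the 3 WT (blue) and 3 PHF2 t/g (orange) libraries. Every share shown is at most 5.74%; for Cox6a2 the PHF2 t/g points (3.37% to 3.86%) lie below the WT points (4.28% to 4.50%), whereas those of Cox7a1 overlap.

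The other isoforms were close to the limit of counting. Cox7a1, of heart and skeletal muscle, was at 3.05, 1.29 and 2.12 CPM in WT and 3.66, 2.27 and 2.74 CPM in PHF2 t/g, 0.622% to 1.87% of Cox7a tags. The 5 rows that were not tested were all isoforms of complex IV. Cox7b2 had 12 counts over the 3 WT libraries and 21 over the 3 PHF2 t/g libraries, and Cox6b2, a testis isoform, had 7 and 21. Cox4i2, known from lung, had 12 and 3. Cox8b, of heart and muscle, had 1 and 6, all 6 of them in PHF2 t/g replicate 1, and Cox8c had 0 and 1. A count of 0 in all WT libraries allows a level of up to 0.142 CPM (3 counts over the group, counting error only), and 0 in 1 library allows 0.339 to 0.544 CPM.

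In complex V, 0 of 15 rows were called by edgeR, DESeq2 or limma-voom, and 3 had an unadjusted p under 0.05. The catalytic head is built from the alpha subunit Atp5a1 and the beta subunit Atp5b. Atp5b was at 476, 450.1 and 486 CPM in WT and at 522, 523 and 536 CPM in PHF2 t/g, with every PHF2 t/g library higher (log2 fold change 0.16, SE 0.07, 95% interval 0.01 to 0.32, edgeR adjusted p = 0.302). Atp5a1 was at 642, 386 and 581 CPM against 634, 513 and 549.6 CPM (log2 fold change 0.08, SE 0.21), with WT replicate 2 far below the rest. Thus the pair did not differ past the threshold, and the interval for Atp5a1 (-0.46 to 0.62) is the wider one.

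Values below 0 with an unadjusted p under 0.05 came from the peripheral stalk and the membrane sector. Atp5o, the stalk protein that confers oligomycin sensitivity, was at 431, 432 and 360.1 CPM in WT and 341, 359 and 368 CPM in PHF2 t/g (log2 fold change -0.20, SE 0.08, edgeR adjusted p = 0.270). Atp5l, subunit g, which takes part in dimer formation, was at 185, 197 and 152 CPM against 164, 150.2 and 143 CPM (log2 fold change -0.22, SE 0.10, edgeR adjusted p = 0.272). In both genes WT replicate 3 lay within the PHF2 t/g range. The most positive value was that of Atp5j, coupling factor 6 of the stalk, at 0.26 (95% interval -0.13 to 0.64), with 77.1, 54.3 and 83.2 CPM in WT and 98.6, 74.3 and 81.7 CPM in PHF2 t/g. WT replicate 2 was once more the lowest.

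The ring that turns in the membrane is made of the c subunit, and Atp5g1, Atp5g2 and Atp5g3 encode the same mature protein. Atp5g3 was the most abundant row of the whole set, at 861, 818 and 835 CPM in WT and 918, 849 and 792 CPM in PHF2 t/g. It supplied 91.0% to 92.9% of the tags of the 3 genes in every library. Atp5g1 supplied 5.24% ± 0.441 in WT and 5.05% ± 0.517 in PHF2 t/g, and Atp5g2 supplied 3.21% ± 0.228 and 2.79% ± 0.156 (SD, n = 3). None of the 3 was called, with log2 fold changes of 0.03, -0.03 and -0.19 for Atp5g3, Atp5g1 and Atp5g2. Near-identical genes exist for Atp5g1 and Atp5g2 and none was found for Atp5g3, so the smaller shares are the less certain ones.

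Summed over its subunits, complex I came to 5882, 5875 and 5780.4 CPM in WT and 5703, 5489 and 5504 CPM in PHF2 t/g. All PHF2 t/g sums were lower, by a mean ratio of 0.952. Complex IV came to 2908 ± 73.2 CPM in WT and 2758 ± 134 CPM in PHF2 t/g, and complex III to 1632 ± 90.7 and 1575 ± 44.5 CPM (SD, n = 3). Complex II came to 539 ± 29.1 and 564 ± 22.9 CPM, and complex V to 3705 ± 117 and 3726 ± 134 CPM. In complexes II to V the sums overlapped between groups. As a share of all counts, with no TMM scaling, the complex I sums were 0.561% to 0.565% in WT and 0.564% to 0.596% in PHF2 t/g. They then overlapped, and the sums of complexes II and V lay higher in every PHF2 t/g library. The direction of the difference in the complex I sum thus depends on the scaling.

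**Figure D5:**
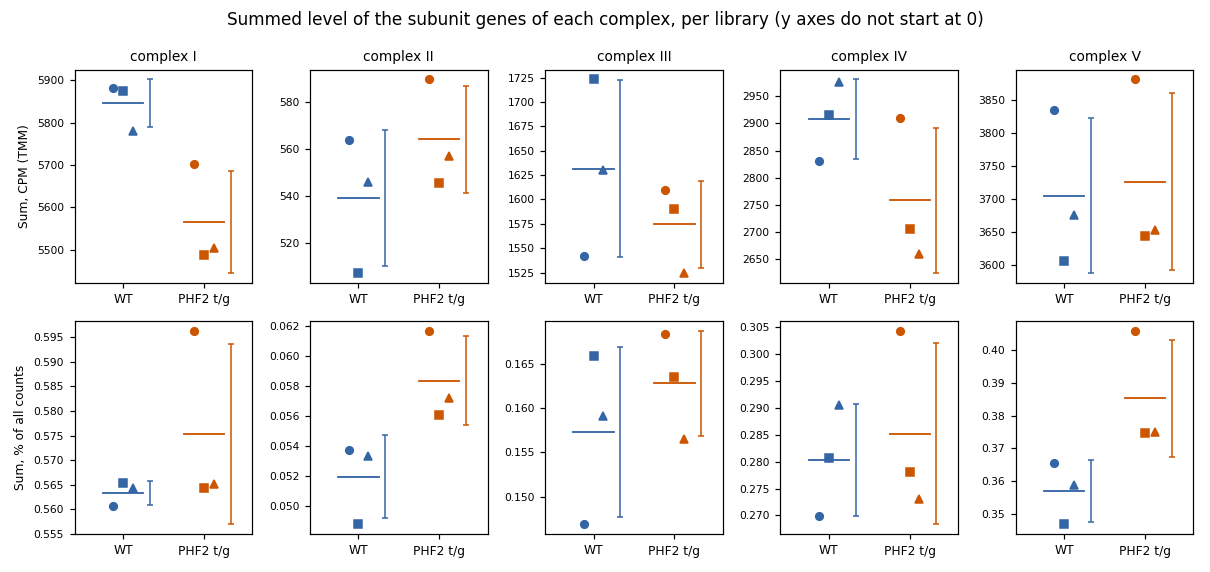
Sum over the subunit genes of each complex in each library: upper row in TMM-scaled CPM, lower row as percent of all counts; lines at the points are means, error bars are the SD over 3 libraries, and the y axes do not start at 0. The complex I sums of PHF2 t/g lie below those of WT in the upper row (5489 to 5703 against 5780.4 to 5882 CPM) and overlap with them in the lower row.

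WT replicate 2 was low for a few subunit genes. It lay more than 0.5 (log2) below the mean of the other WT libraries in 7 of 76 tested subunit rows (9.21%), against 11.3% of all tested rows. The 7 were Ndufa1 of complex I, Sdhd of complex II, Cox7c, Ndufa4 and Cox7a1 of complex IV, and Atp5a1 and Atp5j of complex V. Cox6c was not among them. These genes were listed after their values were seen, and what made this library low for them was not tested. Counts of WT replicate 2 differed from each other library by a chi-square per gene of 9.56 to 18.5, against 2.95 to 9.14 for the pairs without it. This measure grows with depth, and WT replicate 2 was the deepest library (8844718 counts). The part of depth in these values was not tested. Across genes, which are not independent replicates, the deviation of WT replicate 2 from the other WT libraries was set against GC content near the 3′ end. The Spearman correlation was 0.259 over 86 respiratory chain rows and 0.204 over 11898 tested rows. For WT replicate 3 it was -0.252 and -0.146, and for WT replicate 1 -0.119 and -0.107. Each deviation is taken against the other libraries of its group, so these values are linked and do not single out WT replicate 2.

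The 11 rows that encode no structural subunit were lower in level, with a median of 15.1 CPM, and none was called (0 by DESeq2 and limma-voom, 1 at an unadjusted p under 0.05). That 1 was Ndufaf5, a complex I assembly factor, at 15.8, 21.0 and 15.9 CPM in WT and 21.3, 23.1 and 22.5 CPM in PHF2 t/g (log2 fold change 0.33, SE 0.15, edgeR adjusted p = 0.286). Every PHF2 t/g library was higher. Cox7a2l, known as a supercomplex factor, was at 198 to 224 CPM in WT and 197 to 212 CPM in PHF2 t/g. Its function in these mice was not examined.

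Genes that serve oxidative phosphorylation outside the symbols used here were examined next. Lists of 75 assembly factors, carriers and regulators had 70 genes in the files and 68 tested. None was called by edgeR, and none by limma-voom or by DESeq2, which gave an adjusted p for only 27. An unadjusted p under 0.05 was found for 8 of the 68, 3 higher and 5 lower, against 14.7% of all rows tested. Among the carriers and subunits that the symbols above do not cover, the smallest p was that of Etfdh, which feeds electrons from fatty acid oxidation to ubiquinone. It was at 4.76, 2.82 and 4.24 CPM in WT and 8.22, 5.68 and 6.76 CPM in PHF2 t/g (log2 fold change 0.85, SE 0.26, edgeR adjusted p = 0.0995). The groups did not overlap, and it was called when no low-count filter was used.

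At an unadjusted p under 0.05, 1 of 23 complex IV assembly genes was higher and 4 were lower. The shares over all rows tested were 6.72% and 7.95%. The smallest p was that of Coa3, which stabilises newly made COX1, at 220.4, 197 and 194 CPM in WT and 164, 172 and 176.5 CPM in PHF2 t/g (log2 fold change -0.26, SE 0.08, edgeR adjusted p = 0.107). It was called without WT replicate 2. For complex III assembly it was Ttc19 (log2 fold change -0.17, edgeR adjusted p = 0.327), for complex I assembly Timmdc1 (0.28, edgeR adjusted p = 0.457), for complex II assembly Sdhaf2 (0.12, edgeR adjusted p = 0.738), and for complex V assembly Atpaf2 (0.41, edgeR adjusted p = 0.560).

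Among 18 regulators of the nuclear-encoded subunits and of mitochondrial transcription, 15 had a log2 fold change above 0 and 3 below, with a median of 0.12, against 53.9% above 0 and a median of 0.02 over all tested rows. With library size alone 16 were above 0, with a median of 0.23, against 71.4% and 0.12 over all rows. None of the 18 was called. WT replicate 2 was the lowest WT library for many of these genes, though not for all. The count of values above 0 was not made without that library. The smallest p was that of Mterf3, described as a repressor of mitochondrial transcription, at 2.28, 1.53 and 1.21 CPM in WT and 2.55, 2.27 and 4.02 CPM in PHF2 t/g (edgeR adjusted p = 0.307). The coactivator Ppargc1a was at 79.9 to 83.4 CPM and 76.1 to 84.5 CPM (log2 fold change -0.03), and the factor Nrf1 at 9.68 to 10.7 CPM and 8.04 to 11.5 CPM (log2 fold change 0.02). Ppargc1a and Nrf1 were named for their known role, with their values already seen, and in both the groups overlapped.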

How the data were processed

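RNA from hippocampus was made into QuantSeq 3′ libraries, per the labels' protocols. Bowtie2, edgeR and mm10 were used, per the submitters' processing notes; their versions, the counting program, annotation, strand setting and filters were not given in the sources used here. Counts were deposited raw, 1 file per library, with no normalization by the authors. Among the 23282 rows per file, 44 bear a symbol already used and stayed separate.

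Groups came from sample titles. Rows kept by filterByExpr (12831) were scaled by TMM and tested with edgeR 4.0.16 (robust quasi-likelihood fit, genotype as the only term) in R 4.3.3, with Benjamini-Hochberg adjustment and a threshold of 0.05. Alternatives used DESeq2 1.42.0, limma 3.58.1 (voom), other scalings and filters, and subsets of libraries; other scalings of the regulator list and the complex II span without Sdhd were added after seeing the data. Members and lists were chosen with earlier results of these data known. Named genes are the called row; per complex, the 3 highest levels, the 2 smallest p-values and the largest differences at 10 CPM or more; complex IV isoforms; Atp5g genes; untested rows; and the smallest p of each other list. Others were named after their values were seen. Coordinates and promoters are RefSeq's on GRCm38.p6, with 92 of 92 symbols matched, 3 through synonyms. Near-identical 3′ ends were sought with BLAST 2.17.0 among GENCODE M21 transcripts. Mitochondrially encoded genes were not analysed here. 1 complex I row is included in counts and sums but is not reported here by itself.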

Additional observations from a re-analysis of the deposited data

How the results depend on the processing

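The count of called respiratory chain rows (1) fell to 0 with library size alone, with limma-voom and with a fit that was not robust, and was 0 to 1 when 1 library was left out. For all rows tested, the count of 291 became 162 with limma-voom, 606 with no low-count filter, 149 with a fit that was not robust, 140 without PHF2 t/g replicate 1 and WT replicate 2 together and 547 at a threshold of 0.1, and was 49 to 392 when 1 library was left out. The count of other oxidative phosphorylation genes (0) became 1 with no low-count filter, 1 at the threshold of 0.1 and 0 to 1 when 1 library was left out. With library size alone the median log2 fold changes were 0.0854 (complex I), 0.203 (II), 0.0873 (III), 0.0506 (IV), 0.0662 (V) and 0.0759 (all subunits), and the log2 ratios of summed levels were 0.0302, 0.167, 0.0496, 0.0248, 0.110 and 0.0570 in the same order. Without PHF2 t/g replicate 1 and WT replicate 2 the medians were -0.0409 for complex I and -0.0124 for complex II. Leaving out 1 library gave medians of -0.0478 to -0.0096 for complex I, 0.0309 to 0.196 for II, -0.0720 to 0.0245 for III (below 0 in the full set), -0.0626 to -0.0243 for IV and -0.0651 to 0.00973 for V. The cause of these shifts was not tested, beyond the shift that library size alone gives all rows. With the replicate number as a block, 299 rows and 1 respiratory chain row (Cox6c) were called; same-numbered libraries deviated together with correlations of -0.004, 0.123 and 0.085, so the numbers were not taken to pair the samples.

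Depth limits the isoforms at under 1 CPM, and 3 libraries a group limit all intervals. The construct, its site of action and the counting rules are unknown here, and the groups also differ in tissue markers.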
